A study of Homo sapiens with 9 samples.

Results

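The genes described here build the contractile apparatus of striated muscle and couple membrane excitation to contraction: myosins, troponins, titin and nebulin, Z-disc and M-band proteins, creatine kinases and oxygen carriers, and the calcium channels and pumps of the sarcoplasmic reticulum. The list held 50 genes, taken by name. Of these, 47 were measured, by 74 of the 54613 probe sets other than controls, each probe set carrying that gene as its only symbol. MYLPF, TNNT2 and TPM3 had no probe set used here. One probe set stood for 35 of the genes and several for the other 12, and the brightest over the 9 arrays represents each gene unless another is named.

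All samples were Rh30, a human cell line of PAX3-FOXO1 fusion protein positive rhabdomyosarcoma, a soft-tissue tumor with features of skeletal muscle. There were 3 growth forms with 3 arrays each. Xenografts were tumors grown from Rh30 cells in immunodeficient SCID/beige mice. The study's methods describe 1000000 adherent cells injected into the gastrocnemius muscle, whereas the sample labels describe flank implants in Matrigel from adherent or sphere cultures, so the site and the starting culture of these tumors are not settled. Spheres were held for 48 h in Neurobasal medium that contained insulin at 50 µg/ml, bFGF at 80 ng/ml, EGF at 40 ng/ml and the B27 supplement at 1X. Adherent cells grew as a monolayer in medium with 10% FBS. Every group carried the same fusion gene and came from 1 line. The study describes its arrays as biological triplicates, without saying how cultures or animals were kept apart, and p-values measure the spread between these arrays.

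In a sarcomere, thick filaments of myosin pull on thin filaments of actin that troponin and tropomyosin keep switched off until calcium arrives. Calcium leaves the sarcoplasmic reticulum through the ryanodine receptor when a voltage sensor in the membrane moves, and a pump returns it. Many of these proteins exist as fast-fiber, slow-fiber or cardiac, and developmental isoforms encoded by separate genes, and muscle changes from one to another as it matures. Rhabdomyosarcoma cells express myogenic regulators and part of this program without completing it.

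MYOD1, the regulator that commits cells to the muscle lineage, was bright on every array. It read 10.65 to 11.01 in xenografts, 11.06 to 11.08 in spheres and 11.06 to 11.17 in adherent cells on the log2 scale of the arrays. Not every myogenic factor was bright. Among the 11 measured, MYF5 (2.95), MYF6 (3.05) and PAX7 (4.51) averaged under the array medians over the 9 arrays, and the others averaged above them. Array medians lay between 4.78 and 4.88, and arrays of the same group correlated at 0.99 to 0.998. The signal of the beta-actin control at its 3′ end exceeded that at its 5′ end by 2.30 to 2.75 log2 units in xenografts, 3.15 to 3.31 in spheres and 2.07 to 2.67 in adherent cells. The same difference for the GAPDH control was 0.41 to 0.64 in xenografts, 0.59 to 0.67 in spheres and 0.42 to 0.68 in adherent cells. Spheres thus stood apart in the beta-actin control and not in the GAPDH control, and ACTB itself fell by 0.66 in spheres. The part of RNA integrity in the sphere results was not tested.

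Upstream DNA is shown for some members with called changes, with the matches to muscle motifs in capitals. Of the 50 genes, 32 had a RefSeq window of the 250 bases before the annotated start (GRCh38.p14). The members shown are not those that moved most. TNNI1, with the largest fall in xenografts, had no window. SMPX (-1.36), NEB (-1.17) and MYL1 (-1.11) had windows and changed more in xenografts against adherent cells than ATP2A1 (0.69), which is shown. MyoD-family factors bind E-boxes, written CANNTG, and the form CAGCTG lay in 12 of the 32 windows (37.5%), against 13.8% of all 27305 windows. A match to the MEF2 motif lay in 9 (28.1%), against 2.9% of all, and TATAAA in 9 (28.1%), against 11.1% of all. The CArG box of serum response factor lay in 2 (6.25%), against 1.14% of all. Motifs were sought on both strands, MEF2 and CArG by their consensus, and a match is a description of the letters and not a site of binding. MYH4 (chr17:10469560-10469809, minus strand) and ATP2A1 (chr16:28878238-28878487, plus strand) rose in xenografts. MYOZ2 (chr4:119135582-119135831, plus strand) and TNNT1 (chr19:55149207-55149456, minus strand) fell there, and CKB (chr14:103522831-103523080, minus strand) fell in spheres. Capitals mark CAGCTG in MYH4, ATP2A1 and MYOZ2, the MEF2 motif in MYOZ2 and CKB, and TATAAA in MYH4 and TNNT1. In CKB the MEF2 match contains a TATAAA.
MYH4: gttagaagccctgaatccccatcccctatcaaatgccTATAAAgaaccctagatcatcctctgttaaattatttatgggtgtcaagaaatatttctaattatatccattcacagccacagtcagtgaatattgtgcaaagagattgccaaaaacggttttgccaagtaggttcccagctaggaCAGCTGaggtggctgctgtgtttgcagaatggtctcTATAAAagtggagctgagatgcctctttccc
ATP2A1: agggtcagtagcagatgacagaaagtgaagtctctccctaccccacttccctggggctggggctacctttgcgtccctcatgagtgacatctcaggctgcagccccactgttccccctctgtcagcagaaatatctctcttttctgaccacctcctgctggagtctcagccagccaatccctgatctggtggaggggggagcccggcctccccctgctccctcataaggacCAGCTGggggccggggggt
MYOZ2: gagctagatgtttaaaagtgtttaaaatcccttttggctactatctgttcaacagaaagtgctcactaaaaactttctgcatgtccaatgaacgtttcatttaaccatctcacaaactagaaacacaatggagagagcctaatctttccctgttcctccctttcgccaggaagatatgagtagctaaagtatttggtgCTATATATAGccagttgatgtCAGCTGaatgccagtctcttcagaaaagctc
TNNT1: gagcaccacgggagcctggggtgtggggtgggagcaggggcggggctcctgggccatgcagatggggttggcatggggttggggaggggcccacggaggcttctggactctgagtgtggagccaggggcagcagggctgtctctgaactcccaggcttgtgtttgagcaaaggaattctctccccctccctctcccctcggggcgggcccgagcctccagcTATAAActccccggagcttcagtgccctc
CKB: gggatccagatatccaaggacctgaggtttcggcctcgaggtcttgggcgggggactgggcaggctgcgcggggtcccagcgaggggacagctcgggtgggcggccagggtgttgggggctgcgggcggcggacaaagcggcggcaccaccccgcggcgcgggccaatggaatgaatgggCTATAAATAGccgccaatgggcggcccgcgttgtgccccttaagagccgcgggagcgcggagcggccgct
The CAGCTG began 67 bases before the start of MYH4, 19 before that of ATP2A1 and 31 before that of MYOZ2. Genes that rose and genes that fell therefore both held it, and the MEF2 match began 52 bases before the start of MYOZ2 and 70 before that of CKB.

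Against adherent cells, sarcomere genes in xenografts moved both ways. Those that rose numbered 13, led by the myosin heavy chains MYH4 and MYH7 and the calcium pump ATP2A1. Another 12 fell, led by the slow troponins TNNI1 and TNNT1 and the Z-disc gene MYOZ2. Across all 19775 genes, 12.6% rose and 14.3% fell in the same comparison. The median change of the 47 members was 0.089 on the log2 scale, against 0.083 for all genes. The groups of 3 arrays did not overlap for 13 members higher and 13 lower, against 24.4% and 19.5% of all genes. The falls were the larger changes. Of the called genes 1 rise (MYH4) and 8 falls reached 2-fold, against 0.799% and 2.48% of all genes. The count of rises depended on single arrays, at 5 without adherent replicate 2, 6 without adherent replicate 3 and 7 without xenograft replicate 3, while the count of falls stayed between 10 and 12 whichever array was left out. With each array centred on its median, 9 members rose and 13 fell.

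Spheres showed mainly lower values than adherent cells. ACTN2 and CKM were the 2 members that rose, and 13 fell, among them CKB, MYOZ2, CSRP3, CA3 and TNNI1. Over all genes 13.5% rose and 16.3% fell. The median change of the members was -0.13, against -0.039 for all genes. Groups did not overlap for 5 members higher and 21 lower, where 21.1% and 26.6% of all genes did not. Only ACTN2 among the rises (1 gene) and 6 of the falls reached 2-fold, against 3.06% and 2.75% of all genes. The count of rises was 4 without xenograft replicate 3, an array that enters this comparison only through the shared estimate of spread.

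Xenografts and spheres differed in more members, 17 higher and 11 lower in xenografts, against 25.7% and 18.3% of all genes. The median change was 0.23 for members and 0.13 for all genes. Groups did not overlap for 18 members higher and 12 lower, against 32.3% and 20.5%. Of the called members 5 rises and 3 falls reached 2-fold, against 2.7% and 4.87% of all genes. This comparison shares the xenograft arrays with one of the others and the sphere arrays with the other one, so its values stand beside theirs and are not separate evidence.

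**Figure D1:**
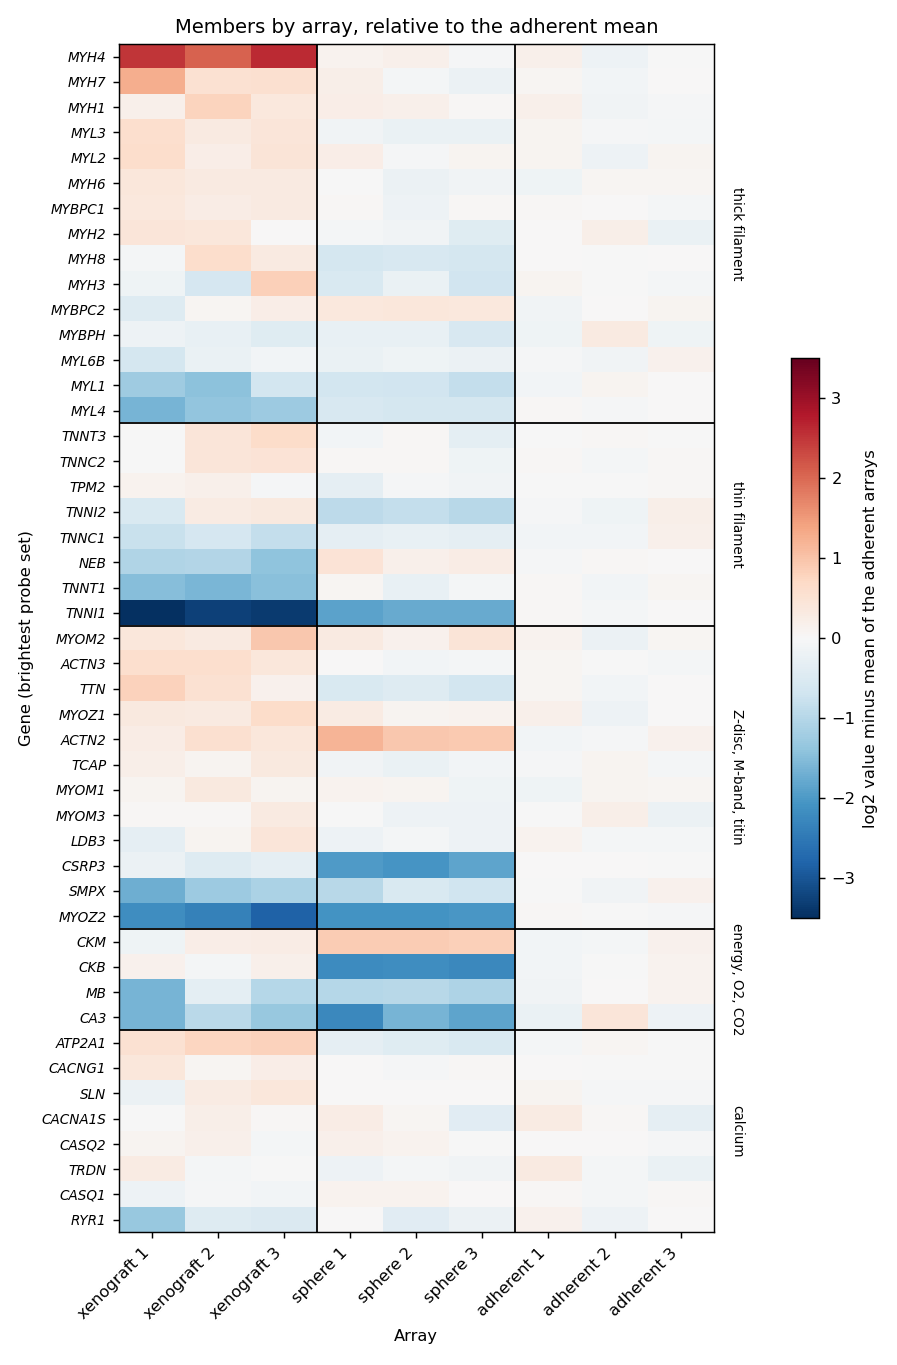
Log2 value of each of the 47 measured genes on each of the 9 arrays, drawn as the difference from that gene's mean over the 3 adherent arrays, with genes in rows by role and xenograft, sphere and adherent arrays in columns. MYH4 is high on the 3 xenograft arrays, TNNI1 and MYOZ2 are low on the xenograft and sphere arrays, and CKB is low on the 3 sphere arrays.

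**Figure D2:**
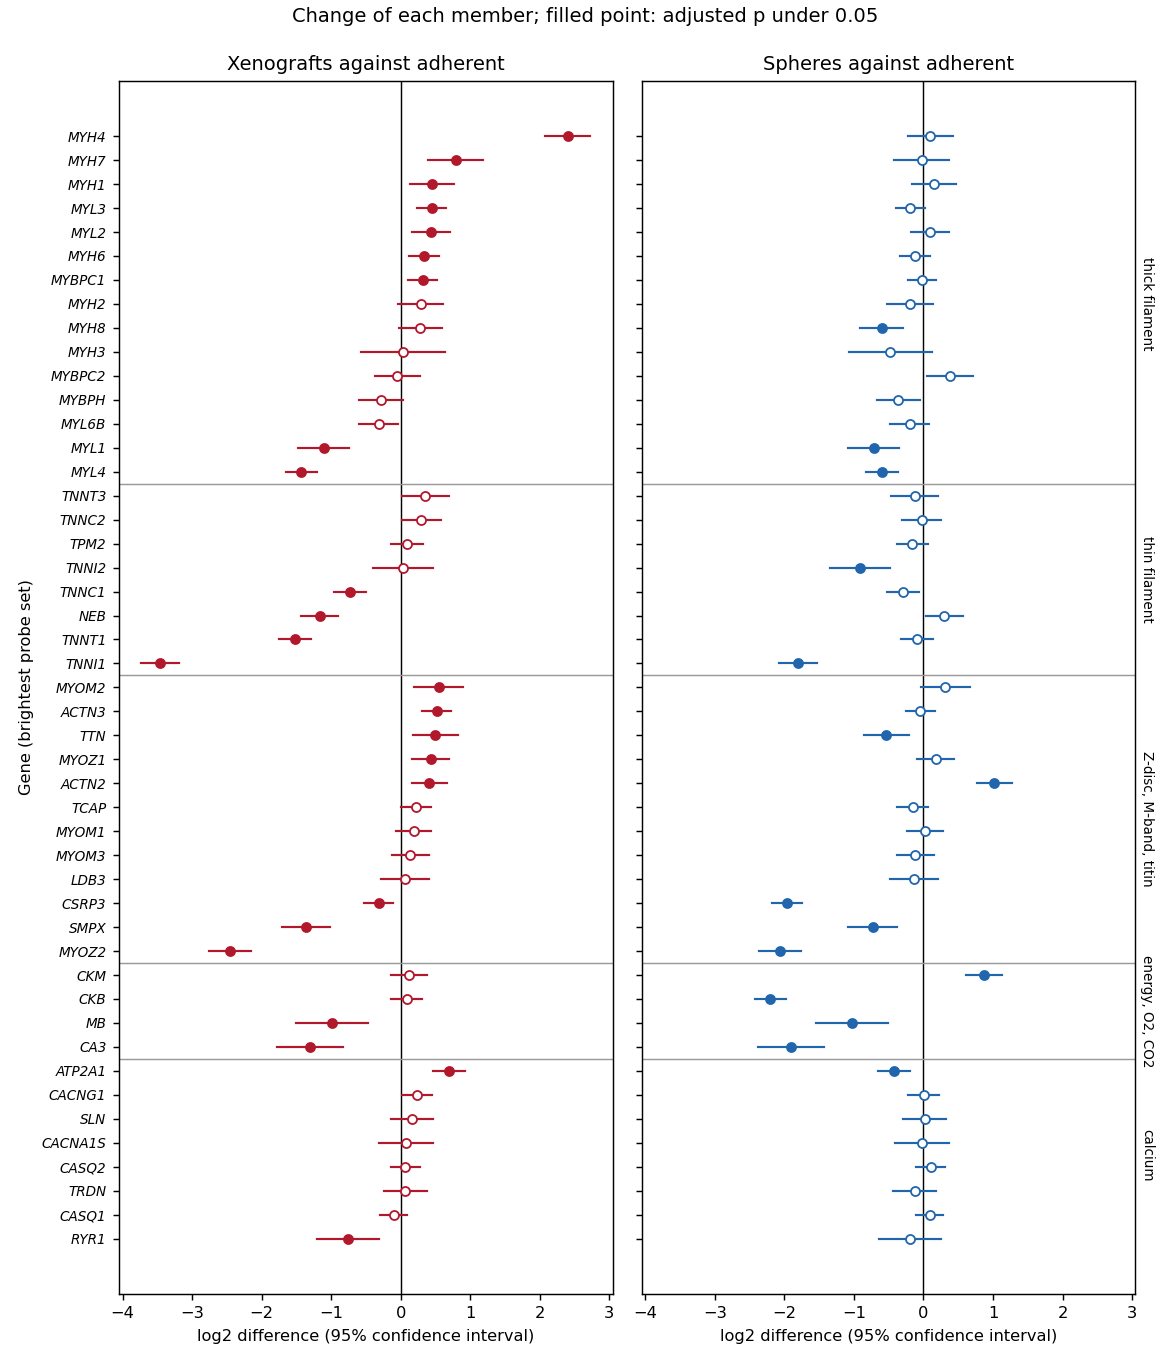
Log2 change of each measured gene, with its 95% confidence interval from limma, in xenografts against adherent cells and in spheres against adherent cells, on a common horizontal scale and ordered by role, with filled points for an adjusted p under 0.05. The changes run from -3.46 (TNNI1) to 2.40 (MYH4) in xenografts and from -2.21 (CKB) to 1.02 (ACTN2) in spheres.

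Of the 13 rises in xenografts, 7 were genes of the thick filament. Of its 15 measured genes, 7 rose and 2 fell in xenografts against adherent cells, none rose and 3 fell in spheres, and 8 rose and 2 fell in xenografts against spheres. The shares of all genes that rose and fell were 12.6% and 14.3%, 13.5% and 16.3%, and 25.7% and 18.3% in these comparisons. The falls of thick filament genes against adherent cells lay close to those shares. MYH4, the fast myosin heavy chain of type IIb, read 4.81, 4.37 and 4.92 in xenografts, 2.43, 2.49 and 2.26 in spheres, and 2.49, 2.13 and 2.28 in adherent cells. Every xenograft array lay far above the other 6, and spheres and adherent cells overlapped. The measured change in xenografts was 2.40 ± 0.15 (SE) against adherent cells (adjusted p = 1.58e-06), and 2.30 ± 0.15 against spheres (adjusted p = 6.27e-07). In spheres it was 0.10 ± 0.15 (adjusted p = 0.724). The sphere and adherent values lay under the lower quartile of their arrays, 3.26 to 3.31, and were not shown to be above background, so no exact fold is given. The xenograft mean of 4.70 lay under the array medians.

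MYH7, the slow and beta-cardiac heavy chain, read 5.63, 4.88 and 4.92 in xenografts, 4.55, 4.29 and 4.14 in spheres, and 4.43, 4.27 and 4.37 in adherent cells. Xenografts lay above both cultures without overlap, and xenograft replicate 1 was the highest. The only MYH7 probe set carries a name that marks sets shared between transcripts or genes. MYH7 therefore had no value in the check without such probe sets, and the part of other genes in its signal was not tested. Names of this kind also mark the brightest probe sets of MYL1, MYL2, MYL4, MYBPC1, TNNT1, TNNT3 and TPM2. They mark those of ACTN2, MYOZ2, CSRP3, SMPX, CKM, CACNA1S and CASQ2 as well, and the same limit holds for all of these. The change of MYH7 in xenografts was 0.79 ± 0.18 against adherent cells (adjusted p = 0.00895) and 0.81 ± 0.18 against spheres (adjusted p = 0.00424). MYH6, its neighbor on chromosome 14 and the alpha-cardiac chain, rose by 0.33 in xenografts (adjusted p = 0.032) from a dim level, and lost that call in 9 alternatives with adjusted p of 0.0523 to 0.124. Such alternatives left out 1 array or changed the scaling or the fit.

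MYH4 lies on chromosome 17 in a row of heavy-chain genes, after MYH8 and before MYH1, MYH2 and MYH3. Its neighbors changed by less than its 2.40. MYH1, a fast type IIx chain, rose by 0.45 (adjusted p = 0.0472) and lost the call in 11 alternatives with adjusted p of 0.0584 to 0.163. Its values of 2.12 to 3.03 lay under the lower quartile of every array and were not shown to be above background. Xenograft and adherent arrays overlapped for MYH1. MYH2, the fast type IIa chain, changed by 0.29 (adjusted p = 0.19), and MYH3, the embryonic chain, by 0.031 (adjusted p = 0.946) with xenograft arrays spread from 2.79 to 4.21. MYH8, the perinatal chain, read 4.01, 4.70 and 4.40 in xenografts, 3.48, 3.52 and 3.47 in spheres, and 4.10, 4.08 and 4.09 in adherent cells. At this probe set spheres were low, with -0.60 against adherent cells (adjusted p = 0.00774) and 0.88 in xenografts against spheres (adjusted p = 0.000498). Its second probe set, nearly as bright, rose in xenografts against adherent cells by 0.63 (adjusted p = 0.0421), while the brightest did not pass the test (0.28, adjusted p = 0.177).

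Light chains divided by isoform. MYL4, the embryonic and atrial light chain, read 8.70, 8.95 and 9.06 in xenografts, 9.78, 9.71 and 9.72 in spheres, and 10.36, 10.29 and 10.35 in adherent cells. The 3 groups stood in steps with no overlap. The change was -1.43 ± 0.10 in xenografts (adjusted p = 4.87e-06) and -0.60 ± 0.10 in spheres (adjusted p = 0.00105), and all 4 of its probe sets fell in all 3 comparisons. All 4 carry names that mark sets shared between transcripts or genes. MYL1, the fast skeletal light chain, fell by 1.11 in xenografts (adjusted p = 0.000716) and by 0.71 in spheres (adjusted p = 0.00749). The slow and ventricular light chains MYL3 and MYL2 rose in xenografts by 0.44 (adjusted p = 0.00659) and 0.44 (adjusted p = 0.028). The call of MYL2 was lost in 6 alternatives, with adjusted p of 0.0511 to 0.121. MYL6B, the brightest member, read 10.62, 10.98 and 11.12 in xenografts, 10.99, 11.07 and 11.02 in spheres, and 11.20, 11.11 and 11.37 in adherent cells. It passed the test in no comparison, with an interval of -0.60 to -0.039 in xenografts against adherent cells that was not adjusted for the number of probe sets.

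**Figure D3:**
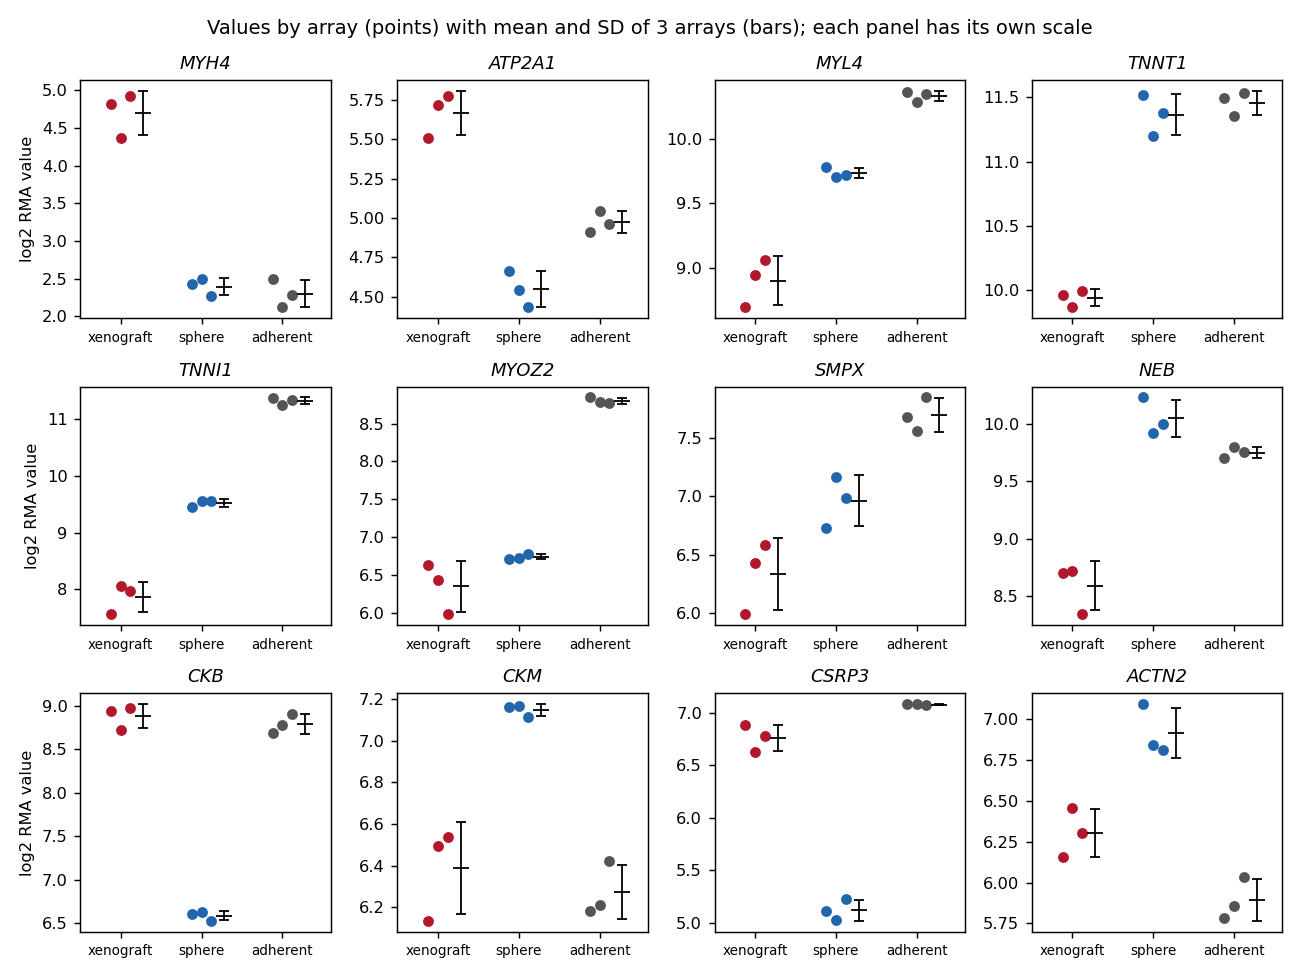
Log2 values by array for members with large called changes, with xenografts, spheres and adherent cells from left to right, each point 1 array and the bars the mean and SD of 3 arrays, each panel on its own scale. MYH4 is high in xenografts, TNNI1 is lowest in xenografts and intermediate in spheres, and CKB is low in spheres.

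In the thin filament, the falls in xenografts were those of the slow troponins and NEB. Of 8 measured genes none rose and 4 fell in xenografts against adherent cells, none rose and 2 fell in spheres, and 2 rose and 4 fell in xenografts against spheres. The shares of all genes were 12.6% and 14.3%, 13.5% and 16.3%, and 25.7% and 18.3%. TNNC2, TNNT3, TNNI2 and TPM2 changed by 0.30, 0.35, 0.038 and 0.089 in xenografts against adherent cells and were not called at their brightest probe sets. TNNI1, slow skeletal troponin I and the inhibitory subunit of the troponin complex, read 7.56, 8.07 and 7.97 in xenografts, 9.45, 9.56 and 9.56 in spheres, and 11.38, 11.26 and 11.34 in adherent cells. No 2 groups overlapped. Xenografts held 0.0911 times the adherent level (-3.46 ± 0.12, adjusted p = 2.97e-08) and spheres 0.286 times (-1.80 ± 0.12, adjusted p = 1.37e-06). This was the largest fall among the members in xenografts.

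TNNT1, slow troponin T, which anchors the complex to tropomyosin, read 9.96, 9.86 and 9.99 in xenografts, 11.52, 11.20 and 11.38 in spheres, and 11.49, 11.36 and 11.53 in adherent cells. Only xenografts stood apart, and the cultures overlapped. The change was -1.52 ± 0.10 in xenografts against adherent cells (adjusted p = 3.09e-06) and -1.43 ± 0.10 against spheres (adjusted p = 1.52e-06). In spheres against adherent cells it was -0.095, with an interval of -0.32 to 0.13. TNNC1, the slow and cardiac calcium-binding subunit, fell by 0.74 in xenografts (adjusted p = 0.000496), so all 3 slow troponin subunits measured fell there.

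The fast troponins did not fall in xenografts against adherent cells. TNNI2, fast troponin I, read 6.28, 7.09 and 7.16 in xenografts, 5.88, 5.97 and 5.83 in spheres, and 6.76, 6.65 and 7.003 in adherent cells. Spheres lay below both other groups, whereas xenografts and adherent cells overlapped. The change was -0.91 ± 0.20 in spheres (adjusted p = 0.00439), 0.95 ± 0.20 in xenografts against spheres (adjusted p = 0.00269), and 0.038 in xenografts against adherent cells, with an interval of -0.39 to 0.47. TNNC2 and TNNT3, the other fast subunits, changed by 0.30 (adjusted p = 0.116) and 0.35 (adjusted p = 0.121) in xenografts against adherent cells. The dimmer of the TNNT3 probe sets rose by 0.50 (adjusted p = 0.0147).

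Nebulin and beta-tropomyosin differed from each other. NEB, a giant protein that runs along the thin filament, read 8.70, 8.72 and 8.34 in xenografts, 10.24, 9.93 and 10.0004 in spheres, and 9.71, 9.80 and 9.75 in adherent cells. Xenografts were lowest and spheres highest, without overlap. The fall was -1.17 ± 0.12 in xenografts against adherent cells (adjusted p = 6.01e-05) and -1.47 ± 0.12 against spheres (adjusted p = 3.82e-06), while the 0.30 in spheres against adherent cells did not pass (adjusted p = 0.0992). A dimmer NEB probe set, with a mean of 4.46 over the 9 arrays, passed no test. It changed in xenografts by -0.041 against adherent cells (adjusted p = 0.797) and by -0.22 against spheres (adjusted p = 0.0951). TPM2 read 10.51, 10.58 and 10.36 in xenografts, 10.07, 10.36 and 10.28 in spheres, and 10.37, 10.37 and 10.44 in adherent cells. Adherent cells overlapped with xenografts and lay just above spheres, and no comparison passed the test at this probe set. The second brightest TPM2 probe set fell in spheres by 0.31 (adjusted p = 0.0181) and was 0.38 higher in xenografts against spheres (adjusted p = 0.00447). At the brightest, the change in xenografts against adherent cells was 0.089, with an interval of -0.14 to 0.32.

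At the Z-disc, M-band and titin filament, 5 of 12 genes rose and 3 fell in xenografts against adherent cells, 1 rose and 4 fell in spheres, and 4 rose and 3 fell in xenografts against spheres. The shares of all genes were 12.6% and 14.3%, 13.5% and 16.3%, and 25.7% and 18.3%. MYOZ2, a Z-disc protein of slow and cardiac fibers that binds calcineurin, read 6.63, 6.43 and 5.98 in xenografts, 6.71, 6.72 and 6.77 in spheres, and 8.85, 8.78 and 8.77 in adherent cells. Both tumors and spheres lay far below adherent cells, at 0.182 and 0.239 times their level. The changes were -2.46 ± 0.14 (adjusted p = 1.01e-06) and -2.06 ± 0.14 (adjusted p = 1.19e-06), and 3 of 3 probe sets fell against adherent cells in each. The difference between xenografts and spheres was small (-0.39, adjusted p = 0.044), and 10 alternatives lost it.

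CSRP3, a LIM protein of the Z-disc, behaved differently. It read 6.88, 6.62 and 6.77 in xenografts, 5.11, 5.02 and 5.22 in spheres, and 7.08, 7.08 and 7.07 in adherent cells. The low group was spheres, with -1.96 ± 0.10 against adherent cells (adjusted p = 1.48e-07), and xenografts were 1.64 ± 0.10 above spheres (adjusted p = 3.61e-07). The smaller fall in xenografts, -0.32 (adjusted p = 0.0347), was lost in 7 alternatives with adjusted p of 0.0548 to 0.259. SMPX, a small muscle protein of the costamere, read 5.99, 6.43 and 6.58 in xenografts, 6.73, 7.17 and 6.99 in spheres, and 7.68, 7.56 and 7.85 in adherent cells. It fell in steps, by 1.36 in xenografts (adjusted p = 0.000131) and by 0.73 in spheres (adjusted p = 0.0046), both against adherent cells.

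At their brightest probe sets, the actin crosslinkers of the Z-disc rose in xenografts, and ACTN2 also in spheres. ACTN2 read 6.16, 6.45 and 6.30 in xenografts, 7.09, 6.84 and 6.81 in spheres, and 5.79, 5.86 and 6.03 in adherent cells. Spheres were highest and adherent cells lowest, with no overlap. In spheres it reached 2.03 times the adherent level (1.02 ± 0.12, adjusted p = 4.94e-05). In xenografts the rise was 0.41 (adjusted p = 0.0253), and 4 settings that left out 1 array lost it, with adjusted p of 0.0513 to 0.0918. Of the 4 ACTN2 probe sets, 2 were called higher in spheres and 1 in xenografts, each against adherent cells. The 2 not called in spheres changed there by 0.28 (adjusted p = 0.0942) and 0.099 (adjusted p = 0.690). ACTN3, the fast-fiber form, read 4.71, 4.72 and 4.53 in xenografts, 4.16, 4.04 and 4.08 in spheres, and 4.21, 4.13 and 4.07 in adherent cells. Xenografts alone stood above, by 0.52 ± 0.09 against adherent cells (adjusted p = 0.00224).

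MYOM2, an M-band protein that links thick filaments, read 6.18, 6.11 and 6.73 in xenografts, 6.11, 5.96 and 6.26 in spheres, and 5.91, 5.60 and 5.87 in adherent cells. Its rise of 0.55 ± 0.16 in xenografts (adjusted p = 0.03) rested on few arrays, since it was not called without adherent replicate 2, without adherent replicate 3, without xenograft replicate 3 or with the compared groups fitted alone (adjusted p up to 0.123). MYOZ1, the fast-fiber relative of MYOZ2, rose by 0.43 in xenografts (adjusted p = 0.0263) and lost that call without each of the same 3 arrays in turn (adjusted p of 0.073 to 0.115). The change of MYOM1 was 0.19 (adjusted p = 0.273), and that of MYOM3 was 0.13 (adjusted p = 0.454).

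TTN, the giant spring between Z-disc and M-band, gave opposite answers at different probe sets. The brightest read 9.39, 9.10 and 8.71 in xenografts, 8.05, 8.14 and 7.94 in spheres, and 8.65, 8.48 and 8.59 in adherent cells. Xenografts were highest and spheres lowest, with changes of 0.50 ± 0.15 in xenografts (adjusted p = 0.0317) and -0.53 ± 0.15 in spheres (adjusted p = 0.0188), both against adherent cells. The second brightest read 6.59, 6.97 and 6.004 in xenografts, 6.80, 6.97 and 6.97 in spheres, and 8.02, 8.48 and 7.96 in adherent cells. Here xenografts and spheres overlapped below adherent cells, with -1.63 ± 0.21 in xenografts (adjusted p = 0.000246) and -1.24 ± 0.21 in spheres (adjusted p = 0.000872). The other 4 probe sets passed the test in no comparison. The difference of the 2 brightest within an array averaged 2.55 ± 0.36 in xenografts, 1.13 ± 0.14 in spheres and 0.42 ± 0.36 in adherent cells (SD, n = 3 each). The rise at the brightest probe set lost its call in 7 alternatives (adjusted p of 0.0586 to 0.112), and the mean of the 6 probe sets changed by -0.081 (adjusted p = 0.480), so no single direction for TTN in xenografts can be given.

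**Figure D4:**
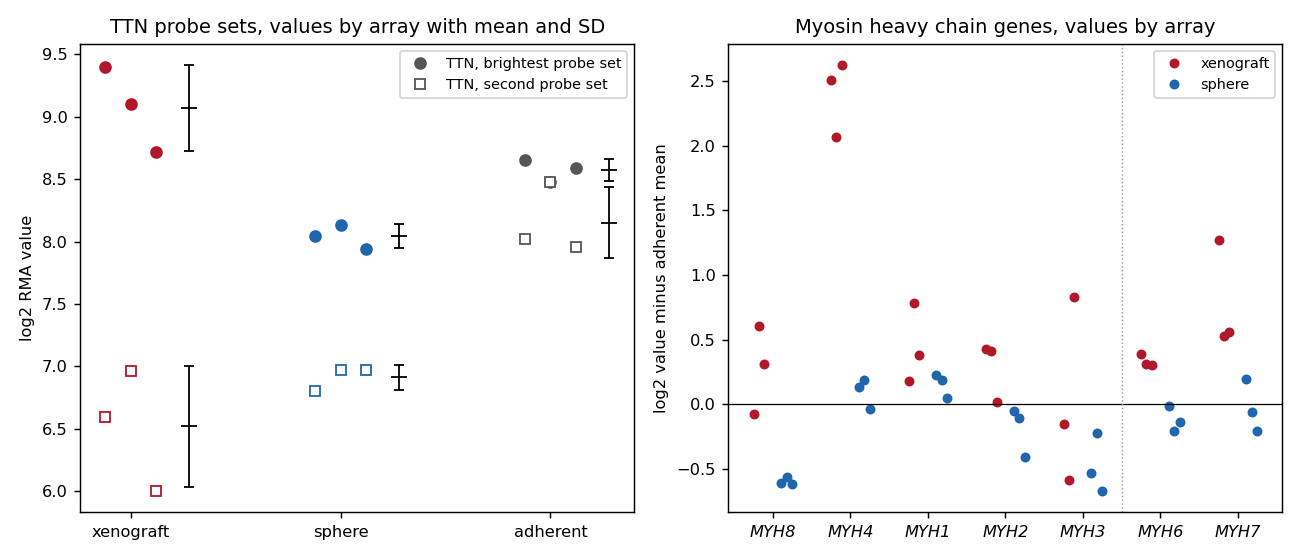
Left, log2 values of the brightest and second brightest TTN probe sets on each array, with group mean and SD beside the points, in xenografts, spheres and adherent cells. Right, log2 value minus the adherent mean on each xenograft and sphere array for the myosin heavy chains of the chromosome 17 row and for MYH6 and MYH7 on chromosome 14. The TTN probe sets part in xenografts, and MYH4 stands above its neighbors.

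All 4 genes of energy supply and gas handling passed the test in spheres, 1 up and 3 down, whereas none rose and 2 fell in xenografts against adherent cells. Over all genes 13.5% rose and 16.3% fell in spheres, and 12.6% rose and 14.3% fell in xenografts. CKB, the creatine kinase of brain and immature muscle, read 8.94, 8.72 and 8.98 in xenografts, 6.60, 6.63 and 6.52 in spheres, and 8.69, 8.78 and 8.91 in adherent cells. Spheres lay at 0.217 times the adherent level (-2.21 ± 0.10, adjusted p = 1.05e-07), the largest fall among the members in spheres. Xenografts and adherent cells overlapped, at a difference of 0.089 with an interval of -0.13 to 0.31, and xenografts lay 2.30 ± 0.10 above spheres (adjusted p = 5.22e-08).

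CKM, the creatine kinase of mature muscle, went the other way in spheres. It read 6.13, 6.49 and 6.54 in xenografts, 7.16, 7.17 and 7.12 in spheres, and 6.18, 6.21 and 6.42 in adherent cells. Spheres stood above both other groups, at 1.83 times the adherent level (0.88 ± 0.12, adjusted p = 0.000175). In xenografts against spheres it fell by 0.76 (adjusted p = 0.000394), and against adherent cells it changed by 0.12, with an interval of -0.14 to 0.38.

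MB, which stores oxygen in muscle, read 5.14, 6.41 and 5.76 in xenografts, 5.75, 5.78 and 5.67 in spheres, and 6.63, 6.77 and 6.89 in adherent cells. Adherent cells were highest, and xenografts spread across the sphere values. It fell by 0.99 in xenografts (adjusted p = 0.0111) and by 1.03 in spheres (adjusted p = 0.00658). CA3, the carbonic anhydrase of slow fibers, read 8.24, 8.91 and 8.53 in xenografts, 7.61, 8.24 and 8.02 in spheres, and 9.64, 10.28 and 9.67 in adherent cells. It fell by 1.30 ± 0.22 in xenografts (adjusted p = 0.00124) and by 1.91 ± 0.22 in spheres (adjusted p = 4.67e-05). The 0.60 between xenografts and spheres (adjusted p = 0.0441) was lost in 7 alternatives.

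Among 8 genes of calcium release and uptake, 1 rose and 1 fell in xenografts against adherent cells. These shares lay close to the 12.6% and 14.3% of all genes. None rose and 1 fell in spheres, where 13.5% of all genes rose and 16.3% fell. In xenografts against spheres 1 rose and 1 fell, where 25.7% and 18.3% of all genes did. ATP2A1, the fast-fiber calcium pump SERCA1, read 5.51, 5.72 and 5.77 in xenografts, 4.67, 4.54 and 4.44 in spheres, and 4.91, 5.05 and 4.96 in adherent cells. All 3 groups stood apart. It rose to 1.62 times the adherent level in xenografts (0.69 ± 0.10, adjusted p = 0.000642) and fell to 0.745 times in spheres (-0.43 ± 0.10, adjusted p = 0.00904). Its dimmer probe set changed by -0.078 in xenografts and -0.071 in spheres and passed neither test.

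RYR1, the calcium release channel, fell by 0.76 in xenografts (adjusted p = 0.0191), from which 3 alternatives took the call (adjusted p of 0.0562 to 0.0695). Its xenograft arrays spread from 5.86 to 6.72. CACNA1S, the voltage sensor, changed by 0.078 in xenografts and -0.016 in spheres, with intervals of -0.31 to 0.47 and -0.40 to 0.37. The calsequestrins CASQ1 and CASQ2, which hold calcium in the reticulum, and SLN and TRDN, which act on the pump and the release channel, passed no test, nor did the channel subunit CACNG1. The 6 members that passed no test here had changes between -0.10 and 0.23 in xenografts and between -0.13 and 0.10 in spheres.

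Read by isoform, 5 of 12 fast-fiber genes rose and 1 fell in xenografts against adherent cells, with a median of 0.32. Of 11 slow-fiber and cardiac genes 5 rose and 5 fell, with a median of 0.066, and of 3 developmental genes none rose and 1 fell. The slow and cardiac rises were MYH7, MYH6, MYL2, MYL3 and MYBPC1, all of the thick filament, and the falls were TNNI1, TNNT1, TNNC1, MYOZ2 and CSRP3. MYBPC1 rose by 0.32, from 2.45 in adherent cells to 2.76 in xenografts, both under the lower quartiles of their arrays. It lost its call in 7 alternatives, with adjusted p of 0.0594 to 0.119. The rises of MYH6 and MYL2 lost theirs in 9 and 6, and the fall of CSRP3 in 7. The fast rises were MYH4, ATP2A1, ACTN3, MYH1 and MYOZ1, of which MYH1 lost its call in 11 alternatives and MYOZ1 in 3. In spheres none of the fast genes rose and 3 fell, and none of the slow genes rose and 3 fell. Over all genes 12.6% rose and 14.3% fell in xenografts, and 13.5% rose and 16.3% fell in spheres. The summed linear signal of the slow and cardiac genes was 1608 to 1657 in xenografts, 3439 to 3980 in spheres and 5849 to 6351 in adherent cells, with TNNI1 and TNNT1 as its bright members. That of the fast genes was 513 to 729 in xenografts, 496 to 534 in spheres and 549 to 588 in adherent cells. Sums over probes of different brightness follow the brightest and do not compare one gene with another.

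Rises and falls in xenografts differed in brightness, with overlap. The 13 that rose had a median of 4.61 over the 9 arrays and the 12 that fell a median of 7.14. Among the 14 members dimmer than the median probe set, with means under 4.84, 7 rose and none fell, against 9.24% and 1.66% of genes as dim. Among the 33 brighter members 6 rose and 12 fell, against 14.5% and 21.4%. MYH4, with 2.40, was the one dim member to change by more than 1 log2 unit.

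**Figure D5:**
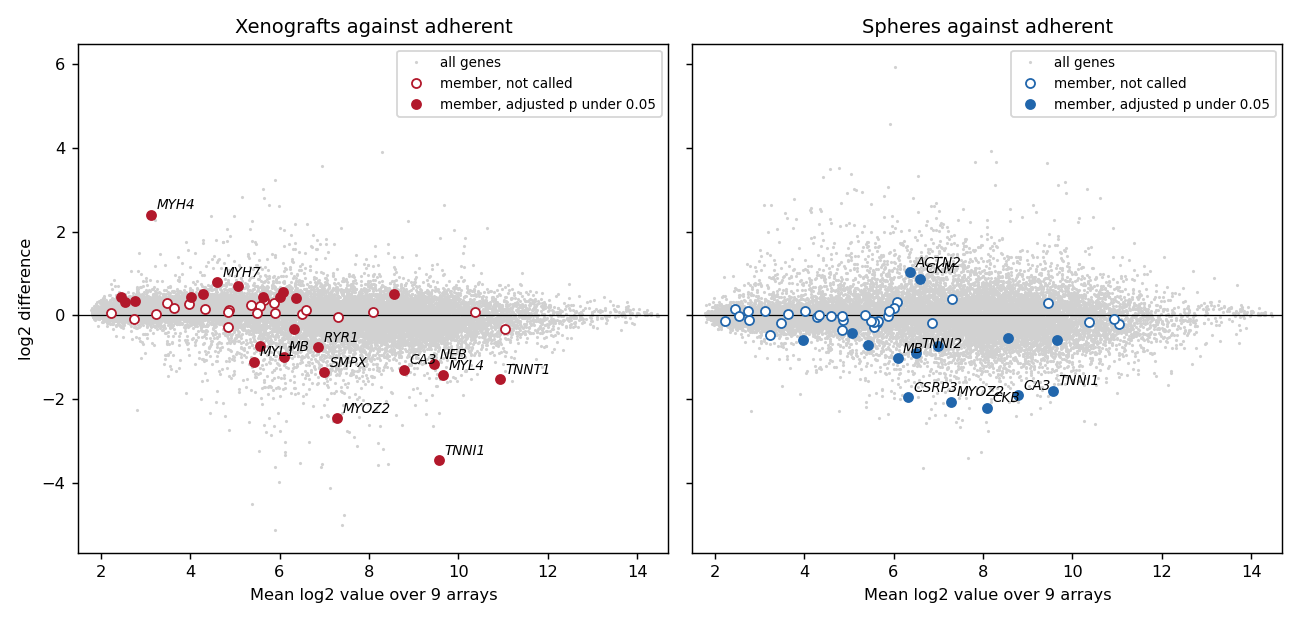
Log2 change of each measured member against its mean log2 value over the 9 arrays, for xenografts against adherent cells and spheres against adherent cells, with all genes in grey and called members filled. In xenografts the called rises lie mostly to the left and the called falls to the right, with medians of 4.61 and 7.14.

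Genes outside the list that serve the same functions fell more often than they rose in xenografts and in spheres, each against adherent cells. Over all genes 12.6% rose and 14.3% fell in xenografts, and 13.5% rose and 16.3% fell in spheres. Of 23 measured further excitation-contraction genes 2 rose and 9 fell in xenografts against adherent cells, and 2 rose and 5 fell in spheres. The membrane proteins CAV3 (-1.95, adjusted p = 0.000144) and DYSF (-1.47, adjusted p = 0.000125) and the reticulum protein SRL (-1.33, adjusted p = 0.00113) fell most in xenografts. Of 30 further sarcomere and costamere genes 2 rose and 11 fell in xenografts, and 2 rose and 11 fell in spheres. KLHL41, which stabilizes nebulin, fell by 2.62 in xenografts, PALLD, an actin-bundling protein, fell by 1.91, and CRYAB, a small heat shock protein of the Z-disc, rose by 1.92. In xenografts against spheres these lists gave 3 higher and 9 lower, and 10 higher and 5 lower. The second list thus went the other way there, where 25.7% of all genes were higher and 18.3% lower.

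The actins of the thin filament were not on the list and are given since it pulls against them. ACTA1, skeletal muscle actin, read 8.40, 8.48 and 8.26 in xenografts, 3.76, 4.20 and 4.51 in spheres, and 5.19, 5.14 and 5.14 in adherent cells. It was high in every xenograft, with 3.22 against adherent cells (adjusted p = 3.24e-07), while ACTC1, cardiac actin, fell by 1.25. Among 11 myogenic transcription factors 2 rose and 5 fell in xenografts, with EYA2 at 0.53, MEF2C at -0.92 and PAX3 at -0.54, and none rose and 3 fell in spheres. MYOG, which drives terminal differentiation, averaged 9.98 ± 0.12 in xenografts, 9.06 ± 0.04 in spheres and 9.98 ± 0.10 in adherent cells (SD, n = 3 each).

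Xenografts also contain mouse cells, and the arrays carry human probes. Fewer cells of a type and less RNA per cell cannot be told apart in such bulk samples. Of 20 genes of adult skeletal muscle outside the members, 5 rose and 2 fell in xenografts against adherent cells, with a summed linear signal of 1731 to 1843 in xenografts, 2171 to 2455 in spheres and 1733 to 1956 in adherent cells. Over all genes 12.6% rose and 14.3% fell. ACTA1 and KLHL41, also counted above, belong to this list of adult muscle genes. ACTA1 rose most, and EEF1A2 (0.89), AMPD1 (0.55), ENO3 (0.41) and MYLK2 (0.28) also rose, while ASB5 and KLHL41 fell by 3.02 and 2.62. The other 13 passed no test in this comparison. One of these, PVALB, a calcium buffer of fast mouse fibers, read 4.06, 3.71 and 3.84 in xenografts, 3.04, 2.89 and 3.08 in spheres, and 3.96, 3.56 and 3.56 in adherent cells, with a change of 0.18 in xenografts against adherent cells (adjusted p = 0.353). It was picked after its values were seen. Values of this kind have no 0.

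Of 12 fibroblast and matrix genes 5 rose and none fell in xenografts, led by LUM (2.82), COL1A2 (1.30) and COL3A1 (0.82), with sums of 1996 to 3180 in xenografts, 1712 to 1984 in spheres and 1607 to 1708 in adherent cells. LUM was uneven, at 8.31, 6.47 and 6.56 in xenografts. Of 12 endothelial genes 2 rose (KDR 0.60, ROBO4 0.37), with sums of 263 to 309 in xenografts, 237 to 264 in spheres and 241 to 248 in adherent cells. Of 5 red blood cell genes 2 rose (SLC4A1 0.32, HBB 0.29), with sums of 183 to 195 in xenografts, 148 to 159 in spheres and 153 to 163 in adherent cells. Of 8 adipocyte genes LEP rose (0.37), with sums of 190 to 197, 166 to 181 and 157 to 175 in xenografts, spheres and adherent cells. Of 11 leukocyte genes AIF1 rose (0.66) and LAPTM5, bright in adherent cells, fell by 3.55, with sums of 280 to 383, 610 to 634 and 1232 to 1293 in the same groups. Over all genes 12.6% rose in this comparison, and the endothelial, adipocyte and leukocyte counts of rises lay near that share. The part of mouse cells in the xenograft values of the sarcomere genes was not tested.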

How the data were processed

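RNA of 9 Rh30 samples was hybridised to Affymetrix HG-U133 Plus 2.0 arrays, and the authors deposited log2 values per probe set after normalization of the arrays by RMA. Which release of RMA was run is not given in the sources used here. The deposited log2 values were used without further scaling.

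After 62 control probe sets were set aside, limma 3.58.1 in R 4.3.3 (lmFit, eBayes) was fitted to all 54613 probe sets with a mean for each of the 3 groups, which left 6 residual degrees of freedom. Benjamini-Hochberg adjustment covered every fitted probe set, and genes with an adjusted p below 0.05 were called higher or lower. Probe sets with 1 symbol numbered 41091, with several 1801 and with none 11721. The brightest stood for each of 19775 genes. The fit was checked on simulated data.

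The members and lists were chosen with earlier results of these data known, so no test over the list was made. Values in every array are given for the 6 largest called rises and 6 largest called falls of each comparison, the 6 brightest members and members whose probe sets disagreed. MYH8, MYOD1, MYOG, ACTA1, PVALB, LMOD3 and the further members of the adult muscle list were given values beyond this rule, after they were seen. Of each further list up to 3 genes with the largest called change in xenografts are named. Intervals are at 95%. The number of arrays, 3 per group, limits precision. Alternatives changed scaling, fit, probe set choice, threshold and arrays. Promoter windows came from RefSeq (GRCh38.p14).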

Additional observations from a re-analysis of the deposited data

How the results depend on the processing

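Of the called members, 14 of 15 in spheres against adherent cells, 15 of 25 in xenografts against adherent cells and 20 of 28 in xenografts against spheres kept their call under every scaling, fit and left-out array. With the brighter probe sets alone (33 members), 6 members rose in xenografts against adherent cells and 10 against spheres, with a median change of 0.095 in the second. Fitting the compared groups alone, array weights and the methods' t-test without adjustment each gave 4 rises in spheres. The methods' t-test after Benjamini-Hochberg adjustment gave 4 rises and 7 falls in xenografts against adherent cells, and 8 rises and 7 falls against spheres. A 2-fold minimum left 1 rise and 6 falls in spheres, 1 rise in xenografts against adherent cells, and 5 rises and 3 falls in xenografts against spheres. Probe sets not named as shared between transcripts or genes (36 members) gave 0 rises in spheres, 7 falls in xenografts against adherent cells and 5 falls against spheres. With them MYOZ2 in xenografts against spheres was 0.0075 (adjusted p = 0.969). In spheres against adherent cells CKM then had no probe set, and ACTN2 was represented by a dimmer one at 0.28 (adjusted p = 0.0942). When all probe sets of a gene were averaged, TTN in xenografts against adherent cells was -0.081 (adjusted p = 0.480). Beyond the smaller number of members and the change of probe set, the causes were not tested.

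Leaving out 1 array moved the median change between -0.17 and -0.11 in spheres, between 0.087 and 0.18 in xenografts against adherent cells (highest without xenograft replicate 1), and between 0.16 and 0.30 in xenografts against spheres. Rises numbered 2 to 4, 5 to 13 and 13 to 19 in these comparisons, and falls 12 to 14, 10 to 12 and 8 to 11. Replicate numbers did not pair the samples: 2 of 9 pairs of same-numbered arrays deviated together with r over 0.1, and 3 of 9 arrays lay closest to their own number. A replicate block gave 11 rises and 12 falls in xenografts against adherent cells, 2 and 13 in spheres, and 17 and 10 in xenografts against spheres.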

Other observations

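LMOD3, a thin-filament nucleator of skeletal muscle outside the 50 genes, read 2.72, 2.55 and 2.43 in xenografts, 5.50, 5.87 and 5.97 in spheres, and 3.05, 3.04 and 2.92 in adherent cells. Spheres stood above both other groups, by 2.78 against adherent cells (adjusted p = 1.07e-07), a larger rise than that of any measured member of the sarcomere list in the same comparison. KLHL41, which stabilizes nebulin, also rose in spheres, by 0.73 against adherent cells (adjusted p = 0.0075), and read 7.07, 6.74 and 6.42 in xenografts. Both genes were picked after their values were seen.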
